A study of Mus musculus with 27 samples.

Results

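The AP-1 and early growth response factors were followed in cell lines grown from mammary tumours of MMTV-PyMT mice on the FVB/N background, a model whose polyoma middle T transgene is read from the mouse mammary tumour virus promoter. The set held 10 genes, Fos, Fosb, Fosl1, Fosl2, Jun, Junb, Jund, Atf3, Egr1 and Egr2, picked by family name from the 24454 genes of the expression table, with earlier results of these data known. RNA-sequencing had been done on 27 libraries from 9 lines, each grown without cytokine, with Wnt3a at 100 ng/ml for 3 days or with TGFβ at 2 ng/ml for 4 days. All lines carried the MMTV-PyMT transgene and a mutant allele of Bcl9 and Bcl9L, coactivators that bridge β-catenin and Pygopus.

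In ΔHD1 lines the mutant allele lacked the homology domain that contacts Pygopus, and in ΔHD2 lines the domain for β-catenin was missing. The fl lines (ΔHD1/fl and ΔHD2/fl) still had a floxed allele beside the mutant one, and the recombined lines (ΔHD1/- and ΔHD2/-) had lost it after infection with an adenovirus carrying Cre and GFP. There were 2 lines of each genotype except ΔHD2/-, with 3, so each of the 12 groups held 2 or 3 libraries. The female mice were 12 weeks old, the tumours came from thoracic glands, and fibroblasts had been removed from the cultures by differential trypsinization. Untreated cells carry a day 4 label, and RNA of all treatments was isolated simultaneously. For its experiments on epithelial-mesenchymal transition the study added TGFβ every second day, and the culture medium held serum. The time from the last addition to harvest is not given in the sources used here.

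AP-1 is a dimer of basic leucine zipper proteins in which a Fos member pairs with a Jun member, while Jun members also pair with each other and with ATF proteins such as Atf3. Most of these genes, like Egr1 and Egr2, are immediate early genes: they are switched on for a short time by growth factors and stress through MAP kinases, the serum response factor and cAMP-responsive factors. In mammary tumour cells AP-1 is known as a partner of Smad proteins at TGFβ-responsive genes, and Egr proteins are zinc finger activators held in check by the corepressors Nab1 and Nab2.

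The values are counts per 1000000 reads assigned to genes (CPM). Libraries held 21864011 to 33692360 reads. A count of 0 allows up to 3 reads, or 0.0890 to 0.137 CPM, which covers counting error alone. The lines were not all epithelial in their markers: in untreated cells Cdh1, which encodes E-cadherin, ranged over 606 to 1145 CPM in 7 lines. It was close to absent in ΔHD1/fl line 2 (0.522 CPM) and ΔHD1/- line 2 (0.237 CPM), called the Cdh1-low lines here. Of 7 fibroblast markers, Pdgfra, Pdgfrb, Col1a1 and Col1a2 stood at 202 to 2603 CPM in these lines, while Dcn was at 0.858 and 1.51 CPM and Lum and Thy1 were at 0 in both. In these lines all of the 9 epithelial markers were at 2.23 CPM or less, except for Krt8, a luminal keratin, at 1089 CPM in ΔHD1/- line 2. Epcam, an epithelial adhesion molecule, was at 0.0746 and 0 CPM there against 263 to 910.3 CPM in the other 7 lines, and Vim, a mesenchymal intermediate filament, at 4188 and 3678 CPM against 2.48 to 761 CPM. ΔHD2/- lines 2 and 3 were nearly alike, with Pearson correlations of 0.993 to 0.997 across genes against 0.807 to 0.957 for the 15 other pairs of libraries of the same group. Where leaving out lines left 1 in a genotype, that line was assumed to vary like the other groups. All 10 genes passed the filter (1 CPM or more in 2 or more libraries), as did 13270 genes in all. In these bulk samples fewer cells of a type and less RNA per cell cannot be told apart.

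Short elements through which immediate early genes are read were searched for near the start sites of the members. RefSeq promoter windows ran from 250 bases before to 50 after a start (GRCm38.p6, the assembly also called mm10). Windows of 8 of the 10 genes were searched. Fosl1 and Egr1 were not searched, so the motif counts say nothing about these genes. Both strands were searched for TGACG, the core of the cAMP response element (CRE), the CArG box bound by the serum response factor, the AP-1 site TGANTCA, the EGR site GCGNGGGCG and the Smad box CAGAC. The CRE core was in windows of 5 of the 8 genes (Atf3, Egr2, Fos, Fosb and Junb) and in 20.9% of 32544 promoter windows of all genes. The CArG box was in windows of 1 of the 8, Egr2, against 1.64% of all windows. A gene was counted if any of its windows held the motif, whereas the shares are over single windows. Egr2 had several listed windows, the other 7 genes 1 each. EGR sites were in windows of 2 (Fosb and Fosl2) against 5.60%, the Smad box in those of 1 (Egr2) against 49.5%, and the AP-1 site in those of 0 against 7.79%. For the 5 genes with a CRE core, 30 bases around the CArG box (Egr2) or the CRE core nearest upstream of a start are printed to show the matched letters in their context. Capitals mark the element, written on the strand of the gene, and no other searched motif overlapped it.
Egr2 CArG box: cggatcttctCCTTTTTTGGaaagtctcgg
Fosb CRE core: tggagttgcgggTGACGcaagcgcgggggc
Junb CRE core: gcttcctgacagTGACGcgagccgcctcct
Fos CRE core: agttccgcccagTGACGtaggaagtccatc
Atf3 CRE core: ttaatagcattaCGTCAgcctgggattggt

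These stretches lie at chr10:67537484-67537513 (Egr2, plus strand), chr7:19310088-19310117 (Fosb, minus strand), chr8:84978837-84978866 (Junb, minus strand), chr12:85473812-85473841 (Fos, plus strand) and chr1:191183323-191183352 (Atf3, minus strand, where the core reads CGTCA because it lies on the opposite strand). The genes span chr10:67535475-67542188 (Egr2), chr7:19302696-19310051 (Fosb), chr8:84974484-84978718 (Junb), chr12:85473890-85477273 (Fos) and chr1:191170296-191218039 (Atf3), so the Egr2 and Atf3 windows belong to a start inside the annotated gene. The capitals are at positions -72 to -63 for Egr2, -60 to -56 for Fosb, -106 to -102 for Junb, -66 to -62 for Fos and -7 to -3 for Atf3, counted from the start of the listed transcript. A match of letters describes the sequence and does not show that a factor binds there.

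Without cytokine all 10 genes were detected, at levels that differed greatly between genes. To compare genes, CPM was divided by the length of the merged exons in kb. On this scale the median over the 9 untreated lines was 114 CPM per kb for Junb, 89.2 for Jund, 51.5 for Fosl2, 33.0 for Jun, 22.6 for Fosl1 and 22.3 for Egr1. It was 7.12 CPM per kb for Fos, 6.08 for Atf3, 2.09 for Egr2 and 0.941 for Fosb. Within the Fos family the medians thus ran from Fosl2 and Fosl1, whose proteins lack a strong activation domain, down to Fos and Fosb. In 8 of 9 untreated lines Fosl2 held the largest share of the family's CPM per kb. Among the Jun proteins Junb was first in 6 of 9 untreated lines and Jund in the other 3. Reads of Fosl1 and Jund are less certain, since their exons overlap those of Ccdc85b and of the antisense gene Gm11175 on the other strand, and whether counting used the strand is not given in the sources used here.

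**Figure D1:**
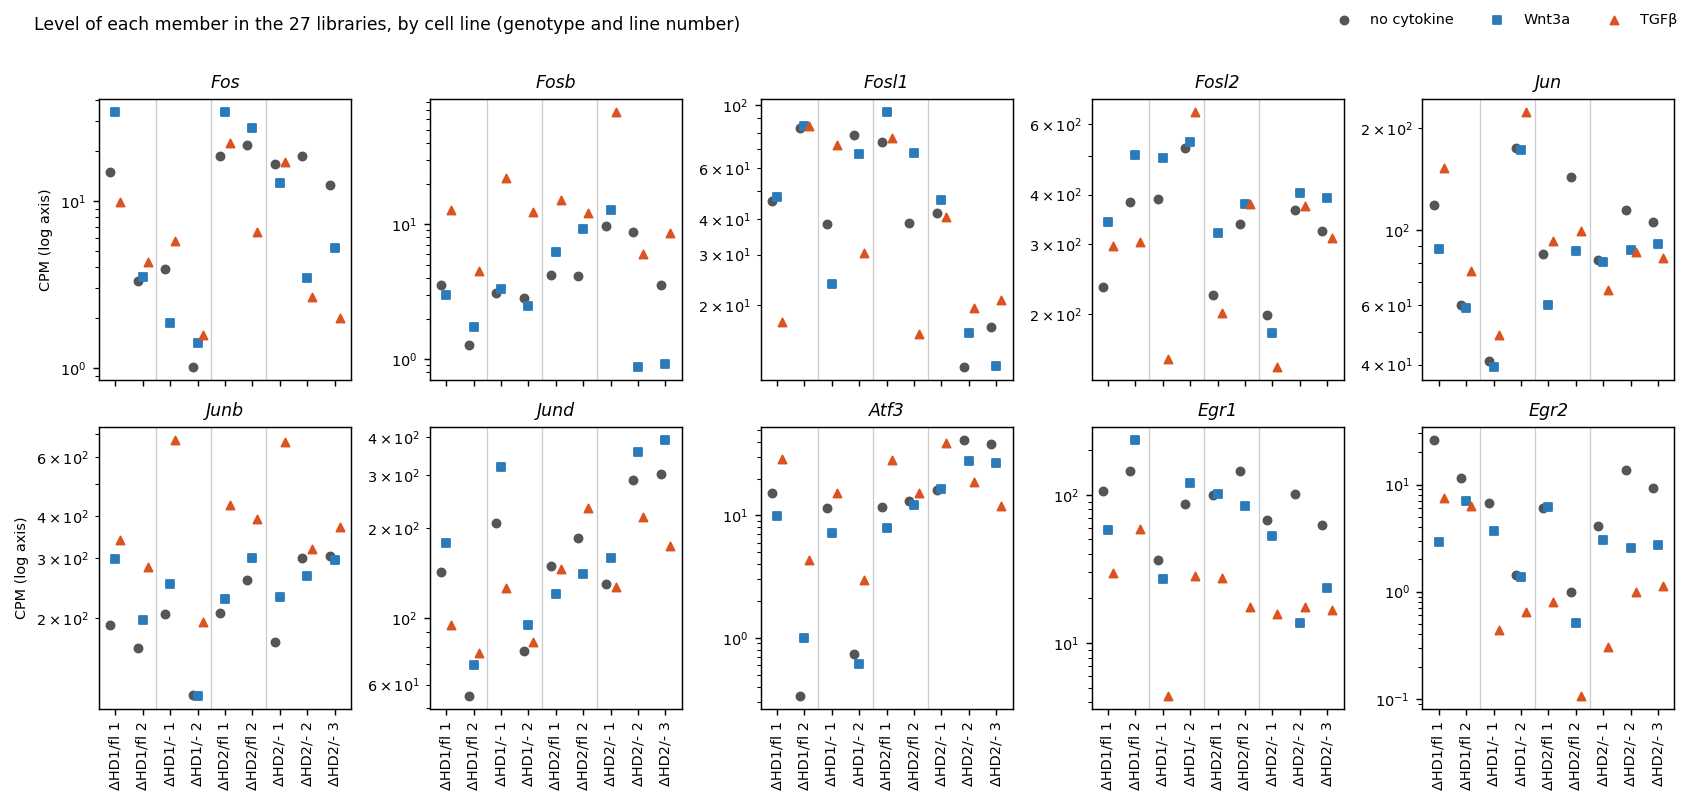
CPM (log axis) of each of the 10 genes in the 27 libraries, with the 9 lines along the horizontal axis and 1 point per treatment. Egr1 and Egr2 under TGFβ lie below the untreated point of the same line in all 9 lines, Junb lies above it in all 9, and untreated Atf3 and Fos are lowest in lines 2 of ΔHD1/fl and ΔHD1/-.

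The spread between untreated lines was wide for Atf3, a stress-induced partner of Jun. Its level was 0.336 CPM in ΔHD1/fl line 2 (9 reads) and 0.742 CPM in ΔHD1/- line 2 (25 reads), 11.4 to 16.2 CPM in 5 lines, and 41.3 and 38.2 CPM in ΔHD2/- lines 2 and 3. That is a 123-fold range, and the SD of its log2(CPM + 1) over the lines, 1.75, was at the 93.7th percentile of all tested genes, whose median SD was 0.418. Both lines at the bottom are the Cdh1-low lines, and both at the top are the nearly identical pair.

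Fos, the founding member, ranged from 1.01 CPM in ΔHD1/- line 2 over a median of 15.0 to 21.8 CPM in ΔHD2/fl line 2. Its 3 lowest lines, at 1.01, 3.32 and 3.89 CPM, were all ΔHD1 lines, while ΔHD1/fl line 1 stood at 15.0 CPM. Egr2 ranged from 1.00 CPM in ΔHD2/fl line 2 over 6.67 to 26.0 CPM in ΔHD1/fl line 1. The highest line was 21.6 times the lowest for Fos and 26.0 times for Egr2.

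Fosl1 ran the other way from Atf3, from 12.1 and 16.7 CPM in ΔHD2/- lines 2 and 3 to 83.2 CPM in ΔHD1/fl line 2, with a median of 42.1. Jund ranged from 55.0 CPM in ΔHD1/fl line 2 over 149 to 302 CPM in ΔHD2/- line 3. Fosl1 was thus highest, and Jund lowest, in the same line. What sets ΔHD1/fl line 2 and ΔHD1/- line 2 apart, their marker profile included, was not tested as a source of these levels.

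Of the other members, Fosl2, Junb, Jun and Egr1 differed less between untreated lines. Fosl2 ranged from 199 to 523 CPM with a median of 337, Junb from 118 to 305 CPM with a median of 206, and their SDs were at the 54.5th and 53.7th percentiles of all genes. Jun, whose protein is the classical partner of Fos, ranged from 41.0 CPM in ΔHD1/- line 1 to 174 CPM in ΔHD1/- line 2, which are the lowest and highest of the 9 and share a genotype. Egr1 ranged from 36.1 to 145 CPM. Fosb ranged from 1.27 to 9.78 CPM, a 7.71-fold range at low levels, wider than those of Fosl1 (6.87-fold) and Jund (5.49-fold). In the sum of squares of log2(CPM + 1) over the 27 libraries, line took 68.8% to 86.9% and treatment 1.70% to 9.99% for Fos, Fosl1, Fosl2, Jun, Jund and Atf3, against medians of 66.1% and 10.7% over all tested genes. For Egr1, Fosb, Junb and Egr2 treatment took 47.0%, 42.2%, 41.5% and 34.4%, and line 39.2% to 48.0%.

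After 4 days of TGFβ the Egr genes were lower and Fosb was higher. The mean response over the 4 genotypes, each weighted equally, was called for 3 of the 10 genes, and 5.42% of all tested genes were called. Genes were called in a limma fit of all libraries where the Benjamini-Hochberg adjusted p did not exceed 0.05 and the log2 fold change reached 1 in size. By direction, 1 of 10 was called higher, against 1.86% of all genes, and 2 of 10 lower, against 3.56%. The median change of the 10 genes was -0.16, the same as the median of all tested genes, -0.16, on the log2(CPM + 1) scale.

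Egr1, a zinc finger activator induced by serum and growth factors, fell and was lower in every line. In ΔHD1/fl lines 1 and 2 it went from 106 and 144 CPM without cytokine to 29.7 and 58.5 CPM under TGFβ, and in ΔHD1/- lines 1 and 2 from 36.1 and 86.4 to 4.41 and 28.3 CPM. In ΔHD2/fl lines 1 and 2 it went from 99.9 and 145 to 27.4 and 17.6 CPM, and in ΔHD2/- lines 1, 2 and 3 from 67.3, 101 and 62.6 to 15.7, 17.5 and 16.8 CPM. The ranges over lines met only because ΔHD1/- line 1 was low before treatment and ΔHD1/fl line 2 high after it, and within each line the treated library was the lower one. The mean change was -2.06 ± 0.38 (SE) on the log2(CPM + 1) scale, lower in 9 of 9 lines, with a limma adjusted p of 0.00176.

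Egr2, the paralogue known for its role in myelination, also fell. It went from 26.0 and 11.4 to 7.48 and 6.28 CPM in ΔHD1/fl lines 1 and 2, from 6.67 and 1.42 to 0.437 and 0.648 CPM in ΔHD1/- lines 1 and 2, and from 6.03 and 1.00 to 0.794 and 0.107 CPM in ΔHD2/fl lines 1 and 2. In ΔHD2/- lines 1, 2 and 3 it went from 4.06, 13.7 and 9.21 to 0.303, 0.998 and 1.13 CPM. In 6 of the 9 lines the treated library was under 1 CPM, and in ΔHD2/fl line 2 it held 3 reads, the floor. The mean change was -1.62 ± 0.36 (SE), lower in 9 of 9 lines, with a limma adjusted p of 0.00543. Over all genes, 15.7% were lower in all 9 lines. Without ΔHD2/- lines 2 and 3 together the change of Egr2 was -1.52 with an adjusted p of 0.0692, above the limit, whereas the call held without any single line.

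Their corepressors were lower too. Nab2, which binds Egr1 and Egr2 and damps their activity, was at 63.4 to 138 CPM in the 9 untreated lines and at 14.2 to 66.9 CPM under TGFβ, lower in 9 of 9 lines. Its mean change of -1.59 ± 0.25 (SE) was called with an adjusted p of 0.000494. Nab1 was also lower in 9 of 9 lines, by -0.86 ± 0.19, with an adjusted p of 0.00467 and a change under the fold limit. Egr3, a further family member, differed by -0.86 ± 0.57 with an adjusted p of 0.324 and was lower in 6 of 9 lines. With the cell line fitted as a block in limma, its SE was 0.23 and its adjusted p 0.00954, with the change under the fold limit. Egr4 was under the filter.

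Fosb, a Fos protein with a strong activation domain, rose and was higher in 8 of 9 lines. In ΔHD1/fl lines 1 and 2 it went from 3.52 and 1.27 to 12.7 and 4.47 CPM, and in ΔHD1/- lines 1 and 2 from 3.12 and 2.85 to 22.1 and 12.3 CPM. In ΔHD2/fl lines 1 and 2 it went from 4.18 and 4.11 to 15.1 and 12.04 CPM, and in ΔHD2/- lines 1, 2 and 3 from 9.78, 8.78 and 3.56 to 68.5, 5.99 and 8.59 CPM. The ranges of untreated and treated lines overlap, and ΔHD2/- line 2 was the line with less Fosb after TGFβ. The mean change was 1.54 ± 0.45 (SE) with a limma adjusted p of 0.0280. The call was lost without any single ΔHD1/fl, ΔHD1/- or ΔHD2/fl line, with changes of 1.45 to 1.63 and adjusted p-values of 0.0503 to 0.112, and without both Cdh1-low lines, with 1.67 and 0.0945. Without ΔHD2/- lines 2 and 3 together it held, at 1.94 with an adjusted p of 0.00239.

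Junb, which restrains Jun at some promoters and activates others, was higher in 9 of 9 lines, but its change was under the fold limit. It went from 190.3 and 163 to 339 and 284 CPM in ΔHD1/fl lines 1 and 2, from 206 and 118 to 674 and 194 CPM in ΔHD1/- lines 1 and 2, and from 206 and 259.9 to 431 and 394 CPM in ΔHD2/fl lines 1 and 2. In ΔHD2/- lines 1, 2 and 3 it went from 170.1, 301 and 305 to 665, 319 and 372 CPM. The ranges overlap, with treated lines 2 of ΔHD1/fl and ΔHD1/- below the highest untreated lines, and ΔHD2/- lines 2 and 3 differed least between treatments. The mean change was 0.91 ± 0.24 (SE) with an adjusted p of 0.0148, which was 0.0509, 0.0851 and 0.0567 without ΔHD1/fl line 1, ΔHD2/fl line 1 and ΔHD2/fl line 2. It passed both limits without ΔHD1/- line 2 (1.03, adjusted p = 0.00292), without ΔHD2/- lines 2 and 3 together (1.20, adjusted p = 0.0272) and without both Cdh1-low lines (1.04, adjusted p = 0.00667). With the cell line fitted as a block in limma, the change of Junb was 0.91 ± 0.17 with an adjusted p of 0.000992, under the fold limit as before. Over all genes, 5.41% were higher in all 9 lines. Junb also passed both limits with edgeR on the recovered reads (1.13, adjusted p = 0.00683), with DESeq2 (1.15, 8.80e-05) and with median-of-ratios scaling (1.08, 0.00757), which moved the median of all genes from -0.16 to -0.02.

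**Figure D2:**
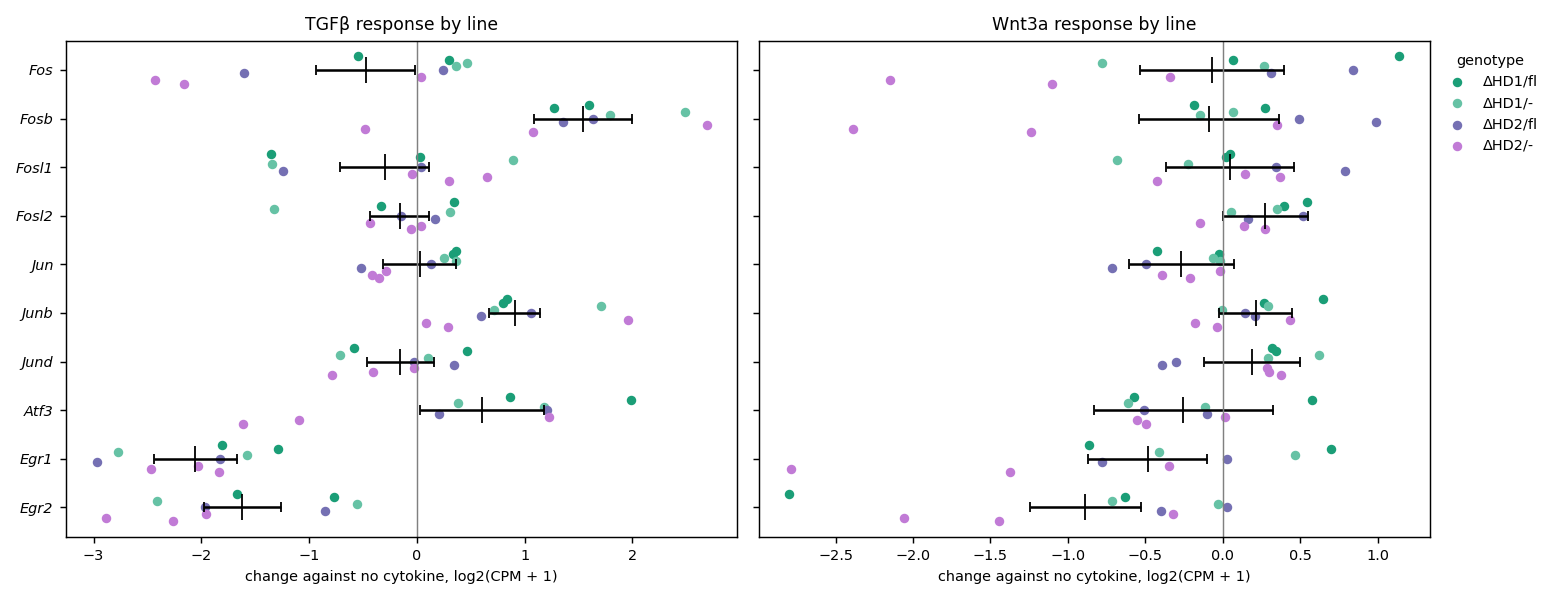
Change of each gene against the untreated library of the same line, in log2(CPM + 1), for TGFβ (left) and Wnt3a (right), with 1 point per line coloured by genotype and the mean over genotypes ± SE of the limma fit in black. Under TGFβ all 9 points of Egr1 and Egr2 lie left of 0 and all 9 of Junb right of it, and under Wnt3a ΔHD2/- lines 2 and 3 form the left end for Fos and Fosb.

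The remaining 6 members had no called mean response to TGFβ. Atf3 differed by 0.60 ± 0.58 (SE) with an adjusted p of 0.512: it was higher in 7 of 9 lines, by up to 1.99 in ΔHD1/fl line 2, and lower in ΔHD2/- lines 2 and 3, by -1.10 and -1.61. Fos differed by -0.48 ± 0.46, with line values from -2.43 and -2.16 in the same ΔHD2/- lines to 0.47 in ΔHD1/- line 1. The pair thus stood apart from ΔHD2/- line 1, where the differences were 1.22 for Atf3 and 0.04 for Fos. Without the pair the mean differences were 1.03 for Atf3 (adjusted p = 0.449) and -0.09 for Fos (adjusted p = 0.943). Without both Cdh1-low lines that of Atf3 was 0.36 (adjusted p = 0.481) and that of Fos -0.57 (adjusted p = 0.440).

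Fosl1 differed by -0.30 ± 0.41, with line values from -1.36 to 0.89, and 4 of 9 lines were lower. Fosl2, Jund and Jun differed by -0.16 ± 0.28, -0.16 ± 0.31 and 0.03 ± 0.34, and the adjusted p-values of these 4 genes were 0.668 to 0.968. Fosl2 had 1 line apart from the rest, ΔHD1/- line 1, where it went from 389 to 155 CPM. In the same line Fosl1 made up 54.6% of the summed CPM per kb of the Fos family under TGFβ, its highest share.

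Within the Fos family, the share of Fosb in the summed CPM per kb of Fos, Fosb, Fosl1 and Fosl2 had a median of 1.31% over untreated lines (0.319% to 4.07%) and of 4.39% under TGFβ (1.24% to 25.6%, the highest in ΔHD2/- line 1). Fosb exceeded Fos per kb in 1 of 9 untreated lines and in 6 of 9 treated ones. Within the Jun family, Junb had a median share of 46.2% without cytokine and of 64.2% under TGFβ, where it was first in 9 of 9 lines. These shares are descriptions and were not tested.

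**Figure D3:**
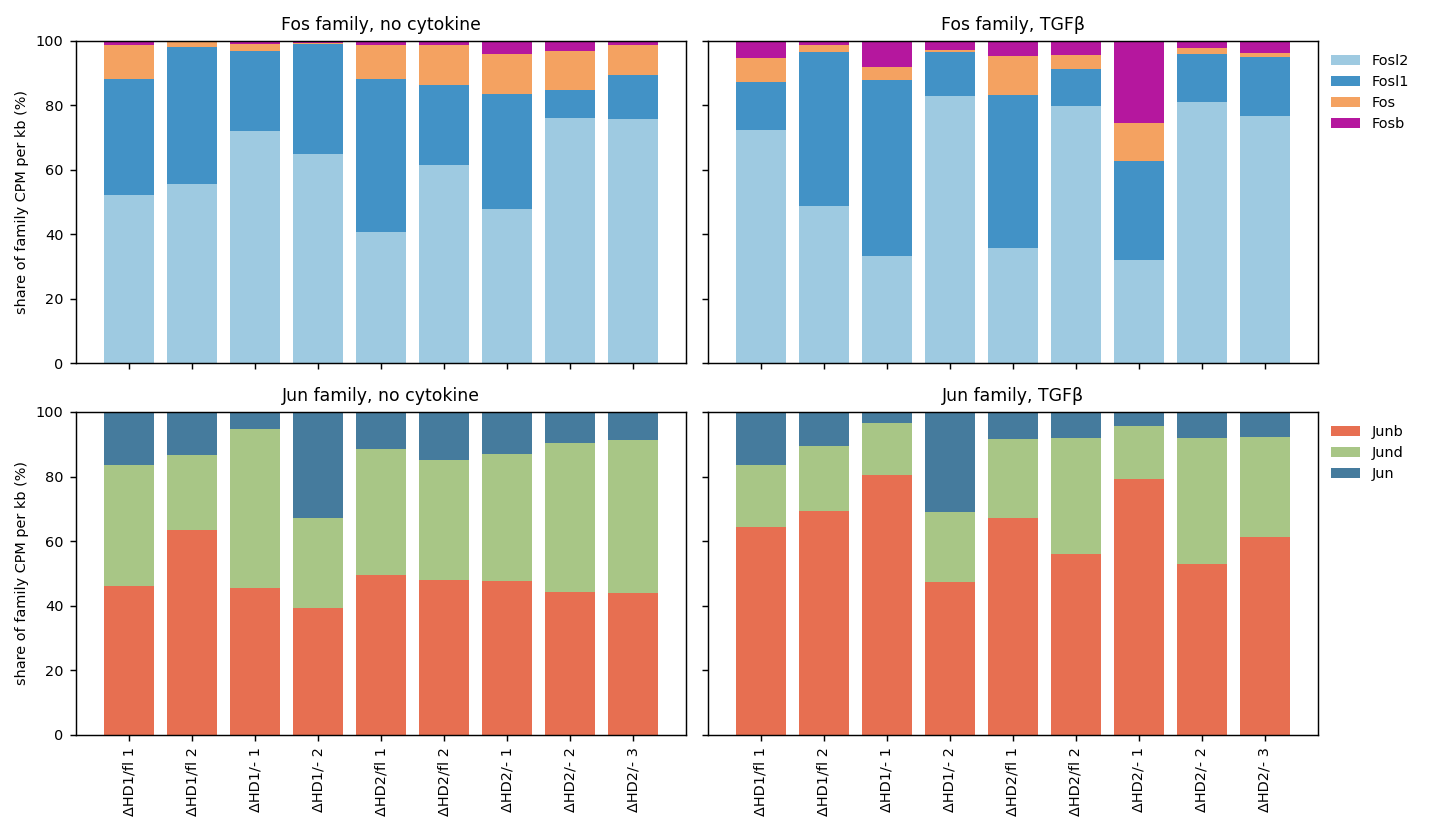
Share (%) of each gene in the summed CPM per kb of its family, by line, without cytokine (left) and with TGFβ (right), for the Fos family (top) and the Jun family (bottom). Fosl2 and Fosl1 fill most of every Fos bar, the Fosb segment reaches 25.6% in ΔHD2/- line 1 under TGFβ, and Junb is the largest Jun segment in all 9 lines under TGFβ.

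In single genotypes, with 2 or 3 lines each, the fit without a block called 0 of 10 members after TGFβ in ΔHD1/fl, ΔHD1/-, ΔHD2/fl and ΔHD2/-, where 0.211%, 1.43%, 0.286% and 0.806% of all genes were called by limma. At an unadjusted p under 0.05 there were 0, 3, 1 and 2 members and 1260, 1777, 1156 and 1437 genes. Untreated and treated libraries come from the same lines, so the cell line was also fitted as a block. With the block, ΔHD1/- had 3 members called against 9.33% of all genes: Fosb (2.14 ± 0.54, adjusted p = 0.0157), Junb (1.21 ± 0.36, adjusted p = 0.0311) and Egr1 (-2.18 ± 0.51, adjusted p = 0.0108). ΔHD2/fl had 1 called against 5.24%, Egr1 (-2.40 ± 0.51, adjusted p = 0.0133). ΔHD2/- had 2 called against 6.03%, Egr1 (-2.11 ± 0.41, adjusted p = 0.00547) and Egr2 (-2.37 ± 0.45, adjusted p = 0.00436), and ΔHD1/fl had 0 against 5.42%. In ΔHD1/fl Egr1 differed by -1.54 ± 0.51 with an adjusted p of 0.0707. The blocked mean over genotypes called the same 3 members, Egr1, Egr2 and Fosb, with adjusted p-values of 3.95e-05, 0.000368 and 0.000483, against 8.92% of all genes.

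The difference in response between genotypes was itself tested. No member passed in the difference of the TGFβ response between ΔHD1/- and ΔHD1/fl, or between ΔHD2/- and ΔHD2/fl, where 0.00754% and 0.0301% of all genes did. At an unadjusted p under 0.05 there were 0 members in both, and 130 and 179 genes. For Egr1 the difference in response was -0.63 ± 1.14 (SE) between the ΔHD1 genotypes and 0.29 ± 1.04 between the ΔHD2 genotypes. For Fosb it was 0.70 ± 1.34 and -0.40 ± 1.22. With the cell line as a block the SEs were 0.72 and 0.66 for Egr1 and 0.76 and 0.70 for Fosb, and 0 members were called in both contrasts.

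Other genes of the pathway were taken as lists, chosen like the members with earlier results of these data known. Their counts stand beside 1.86% of all tested genes called higher and 3.56% called lower, and 8.92% called in either direction with the block. Of 9 tested other bZIP partners of AP-1, 1 was called higher after TGFβ and 0 lower: Maff, a small Maf protein without an activation domain, by 1.02 ± 0.32 (adjusted p = 0.0376). With the cell line as a block 2 were also called lower, among them Maf (-1.41, adjusted p = 0.000348), a large Maf protein. The median of the list was 0.01. Of the 3 tested other EGR genes and Nab corepressors, 1 was called lower, Nab2, and their median was -0.86.

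Among 21 other immediate early genes, 4 were called higher and 0 lower. These were Ccn1, a matricellular protein (1.71 ± 0.41, adjusted p = 0.00940), the small GTPase Rhob (1.41 ± 0.23, adjusted p = 0.000581), the survival factor Ier3 (1.15 ± 0.38, adjusted p = 0.0464) and the zinc finger factor Klf6 (1.01 ± 0.13, adjusted p = 8.81e-05). The median of the list was -0.01, against -0.16 for all genes. With the block, 4 were higher and 3 lower, the latter being Klf4 (-1.88, adjusted p = 0.000122), Arc (-1.58, adjusted p = 0.000432) and Nr4a1 (adjusted p = 0.0114), which fell by 1.00. With the block, called members of this list thus lay in both directions.

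The list of MAP kinases, serum response factor cofactors and Fbxw7, a ubiquitin ligase subunit, 15 genes in all, had 0 called higher or lower in the limma fit, with or without the block, and a median of 0.00. At the adjusted p alone, without a fold limit, several passed with small changes, among them Elk3, an Ets repressor of the ternary complex family (0.82 ± 0.19, adjusted p = 0.00759), and Mapk14, the p38α kinase (-0.43 ± 0.09, adjusted p = 0.00335), both picked after their values were seen. Of 9 tested ERK feedback inhibitors 1 was called higher, Dusp4, a nuclear phosphatase of ERK (1.90 ± 0.62, adjusted p = 0.0441), and with the block also Spry4 (1.05, adjusted p = 3.24e-05). Their median was 0.78.

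AP-1 target genes were the list with the most calls: 9 of 20 tested were higher and 0 lower, with a median of 1.41, and with the block 12 were higher. Among the largest changes were those of Mmp9, a gelatinase (5.13 ± 1.24, adjusted p = 0.00958), Mmp10, a stromelysin (3.68 ± 0.93, adjusted p = 0.0125), and Itga2, an integrin subunit for collagen (3.15 ± 0.99, adjusted p = 0.0373). Mmp13, a collagenase, Ptgs2, the inducible cyclooxygenase, the growth factors Hbegf and Vegfa, and Cd44 were called higher as well.

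**Figure D4:**
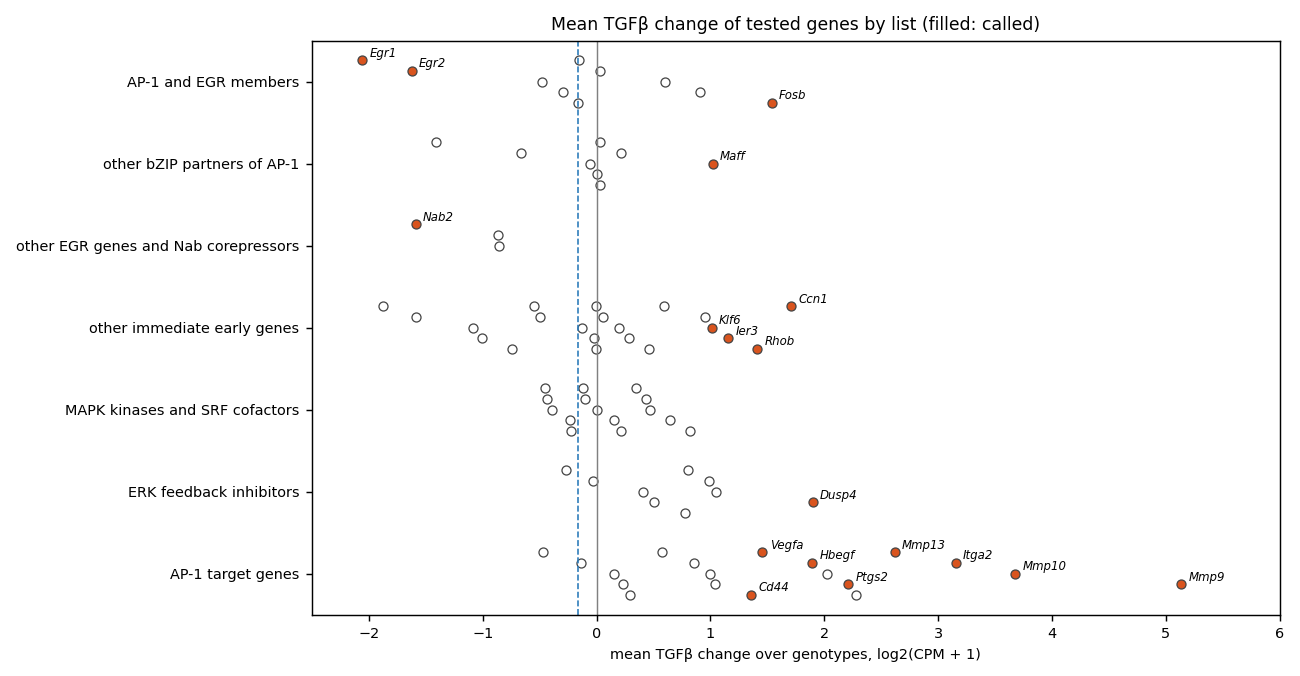
Mean TGFβ change over genotypes, in log2(CPM + 1), of tested genes of 7 lists, with 1 circle per gene, called genes filled and named, a grey line at 0 and a dashed line at the median of all tested genes, -0.16. The called AP-1 target genes shown lie right of 0, from 1.35 for Cd44 to 5.13 for Mmp9, whereas the genes of the list of MAPK kinases and cofactors lie within 1 unit of 0.

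Markers of other cell states moved under TGFβ as well. Of 3 basal markers 1 was called lower (median -2.12), of 7 mesenchymal markers 1 higher, the fibronectin gene Fn1 (1.90 ± 0.32, adjusted p = 0.000773, list median 0.73), and of 9 epithelial and 6 tested fibroblast markers 0 (medians -0.27 and 0.04), against 5.42% of all genes. With the block 3 basal markers were lower and 3 mesenchymal ones higher, of the epithelial ones 1 was higher and 2 were lower, and of the fibroblast ones 1 was higher, the collagen gene Col1a1 (1.21, adjusted p = 0.0146). The summed mesenchymal markers ran from 3727 to 18260.3 CPM in untreated lines and from 13002 to 48596 CPM under TGFβ. The defining leukocyte markers Ptprc, Adgre1 and Cd3e were under the filter. The 1 tested of 5 leukocyte markers, Cd68, a lysosomal protein of macrophages, differed by -0.91 ± 0.26 (adjusted p = 0.0232), under the fold limit. The list summed to at most 17.7 CPM in untreated lines and 8.91 CPM under TGFβ. Of 2 tested endothelial markers 1 was called higher at sums of at most 6.51 CPM. The part of these shifts in the values of the members was not tested.

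After 3 days of Wnt3a no member had a called mean response, where 0.0226% of all genes did by limma, and 0.241% with the block, again with 0 members. At an unadjusted p under 0.05 there were 614 genes and 1 member, Egr2, with -0.89 ± 0.36 (SE) and an adjusted p of 0.982. edgeR and DESeq2 on recovered reads also called 0 members. Egr2 was lower in 8 of 9 lines, from 26.0 to 2.88 CPM in ΔHD1/fl line 1 and from 6.03 to 6.16 CPM in ΔHD2/fl line 1, the exception. The Wnt3a and TGFβ responses share their untreated libraries, so values of both responses for 1 gene are not independent. In each of the 6 lists of other pathway genes 0 were called after Wnt3a, and the list medians were -0.32 to 0.19, against -0.06 for all genes.

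Jun was lower in 9 of 9 lines after Wnt3a, as 3.22% of all genes were, but the differences were small. It went from 143 to 86.7 CPM in ΔHD2/fl line 2 (-0.72, the most) and from 174 to 172 CPM in ΔHD1/- line 2 (-0.02, the least). The mean change was -0.27 ± 0.34 with an adjusted p of 1.00, and of 0.114 with the cell line as a block. Over all genes, 1.73% were higher in all 9 lines. Fosl2 was higher in 8 of 9 lines, with a mean change of 0.27 ± 0.28 and an adjusted p of 1.00.

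Fos, Fosb and Egr1 had wide line values under Wnt3a. Fos went from 15.0 to 34.3 CPM in ΔHD1/fl line 1 and from 18.7 to 34.3 CPM in ΔHD2/fl line 1, but from 18.7 to 3.44 and from 12.4 to 5.26 CPM in ΔHD2/- lines 2 and 3. Fosb went from 8.78 to 0.871 and from 3.56 to 0.930 CPM in the latter pair, and from 4.11 to 9.16 CPM in ΔHD2/fl line 2. Egr1 went from 101 to 13.8 and from 62.6 to 23.5 CPM in the pair, and from 144 to 234 CPM in ΔHD1/fl line 2. In ΔHD2/- line 1 the differences of Fos, Fosb and Egr1 were -0.34, 0.35 and -0.35 in log2(CPM + 1). Within ΔHD2/- the largest falls thus lay in the nearly identical pair. Outside ΔHD2/- the lowest differences were -0.78 for Fos in ΔHD1/- line 1 and -0.86 for Egr1 in ΔHD1/fl line 1. The mean Wnt3a differences of Fos, Fosb and Egr1 were -0.07, -0.09 and -0.48 with all lines and 0.15, 0.27 and -0.19 without the pair, with adjusted p-values of 1.00 throughout.

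In single genotypes 0 of 10 members responded to Wnt3a in each of the 4, with background shares of 0.0151% (ΔHD1/fl), 0.00754% (ΔHD1/-), 0.113% (ΔHD2/fl) and 0.00754% (ΔHD2/-), and the block called 0 as well, against 0.00754%, 0.00754%, 0.324% and 0.00754%. Unadjusted p-values under 0.05 were those of Egr2 in ΔHD1/fl (-1.72 ± 0.75, adjusted p = 1.00) and Egr1 in ΔHD2/- (-1.50 ± 0.66, adjusted p = 1.00), among 212 and 124 genes. The difference in the Wnt3a response between recombined and fl lines had 0 members called in the ΔHD1 and ΔHD2 genotypes, against 0.00% and 0.0151% of all genes, and 0 at an unadjusted p under 0.05, among 15 and 74 genes. The widest such difference was that of Fosb between ΔHD2 genotypes, -1.83 ± 1.22 (SE), and Fos followed with -1.77 ± 1.25.

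Recombined lines were compared with fl lines under each treatment to ask whether loss of the floxed Bcl9 and Bcl9L alleles moved the members. Lines of both kinds carried the mutant allele, so these comparisons cannot show what the mutant allele itself does. For tumours of such mice the paper proposes that the mutant proteins act dominantly over the wild type. The limma fit called 0 of 10 members in each of the 6 comparisons. For ΔHD1/- against ΔHD1/fl the shares of all genes called were 0.0678% without cytokine, 0.0452% under Wnt3a and 0.0301% under TGFβ. For ΔHD2/- against ΔHD2/fl they were 0.550%, 0.686% and 0.354%. The members with an unadjusted p under 0.05 numbered 1, 1 and 2 in the ΔHD1 comparisons, among 644, 777 and 1091 genes, and 0, 3 and 0 in the ΔHD2 comparisons, among 1143, 1146 and 1059 genes.

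In the ΔHD1 comparison these were Egr2 without cytokine (-2.09 ± 0.75, adjusted p = 0.727), Fos under Wnt3a (-2.27 ± 0.97, adjusted p = 0.803), and Egr1 (-1.76 ± 0.80, adjusted p = 0.574) and Egr2 (-2.35 ± 0.75, adjusted p = 0.347) under TGFβ. The untreated Egr2 values were 26.0 and 11.4 CPM in the fl lines and 6.67 and 1.42 CPM in the recombined ones. In the ΔHD2 comparison under Wnt3a they were Fos (-2.12 ± 0.88, adjusted p = 0.501), Fosl1 (-1.89 ± 0.79, adjusted p = 0.502) and Egr1 (-1.80 ± 0.73, adjusted p = 0.487), all lower. Fosl1 stood at 94.8 and 67.9 CPM in the fl lines and at 46.5, 15.9 and 12.2 CPM in the recombined ones, the last 2 being the nearly identical pair. With the line number as a block in limma, Fosl1 was called lower here (-1.67, adjusted p = 0.0320). Whether fl and recombined lines of the same number share a tumour is not given in the sources used here.

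Leaving out lines moved some of these calls. Without ΔHD1/fl line 2, Fos under Wnt3a was called lower in ΔHD1/- (-3.75, adjusted p = 0.0396), against 1 remaining ΔHD1/fl line that was assumed to vary like the other groups. Without ΔHD2/- line 1, Fosb under Wnt3a was called lower in ΔHD2/- (-2.18, adjusted p = 0.0137), a group that then held only the nearly identical lines 2 and 3. With both Cdh1-low lines left out, which leaves 1 line in each ΔHD1 genotype and assumes that it varies like the other groups, Jun was called lower under TGFβ (-1.62, adjusted p = 0.0354). None of these 3 calls stood with all lines.

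**Figure D5:**
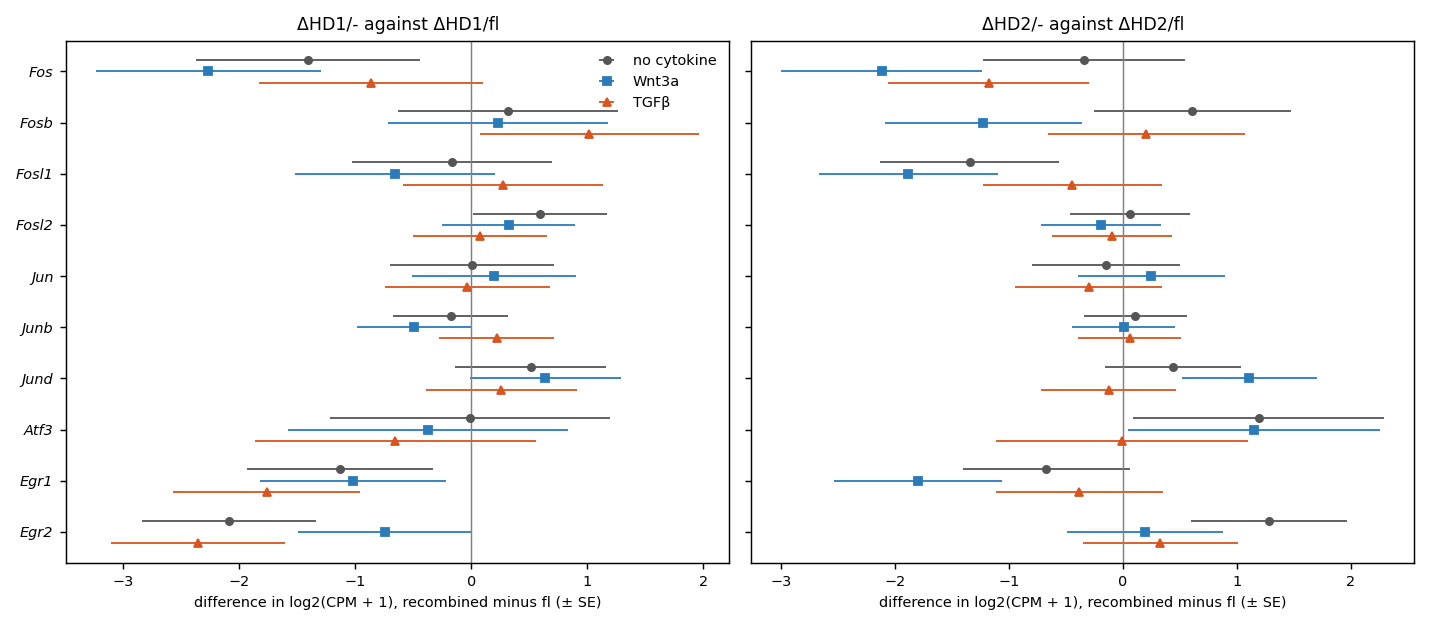
Difference in log2(CPM + 1) between recombined and fl lines (limma estimate ± SE) for each gene without cytokine, with Wnt3a and with TGFβ, in the ΔHD1 (left) and ΔHD2 (right) genotypes. No estimate was called, and the lowest are Egr2 under TGFβ in ΔHD1 (-2.35) and Fos under Wnt3a in ΔHD1 (-2.27) and ΔHD2 (-2.12).

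The tested gene whose log2(CPM + 1) ran most like Fosb, Egr2, Egr1 and Junb over the 27 libraries was noted as a description. It was Cd44, the hyaluronan receptor, for Fosb (Pearson's r = 0.85), Spp1, which encodes osteopontin, for Egr2 (r = 0.84), Chil1, a chitinase-like secreted protein, for Egr1 (r = 0.81) and Spindoc for Junb (r = 0.85). The 27 libraries come from 9 lines and share treatments, and over the 9 untreated lines alone the same pairs had r of 0.44, 0.68, 0.74 and 0.91. The r of Fosb and Cd44 was thus lower over the untreated lines. Cd44 is also 1 of the 9 AP-1 target genes above.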

How the data were processed

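The deposited table held CPM values: the authors made stranded mRNA libraries, mapped single-end reads by STAR to the mm10 assembly, left out multi-mapping reads, counted those starting in RefSeq exons with QuasR and scaled each library to 1000000 reads. The labels name a NovaSeq, and the methods of the study name a NovaSeq as well as a NextSeq. Recovered counts were checked: all values were whole multiples of 1 read (tolerance 0.05), so reads could be recovered. limma 3.58.1 in R 4.3.3 (trended, robust variance) was run on log2(CPM + 1) for the 13270 genes that reached 1 CPM in 2 or more libraries, with 12 group means, no block and 20 comparisons, and fold changes on this scale understate those of low genes. edgeR 4.0.16 and DESeq2 1.42.0 on recovered reads, another pseudocount, filter and scaling, each line left out and a block were alternatives, and the fits were tested on simulated data. Figures were drawn with matplotlib 3.10.9.

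Libraries share a cell line across treatments, and those of the same line showed correlated deviations from the group mean (r 0.509 to 0.940 over genes), so treatment responses were also fitted with the line as a block. The labels describe lines of a genotype as coming from 2 mice, yet ΔHD2/- has 3, and whether fl and recombined lines of the same number share a tumour is not given in the sources used here, so p-values may partly measure technical spread.

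The members and lists were chosen with earlier results of these data known. Named genes were the 10 members, of each list the called genes of a mean response (at most 4 per direction), the gene most correlated with a member the text turns on (Fosb, Egr2, Egr1 and Junb), and the markers Cdh1, Epcam, Krt8, Vim and Fn1. The fibroblast and leukocyte markers, Nab1, Egr3, Elk3, Mapk14, the AP-1 target genes beyond those of largest change, in the text and the plot of the lists, and genes called with the block alone were added after their values were seen. Some genes of the lists are counted but not reported by name or plotted here.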

Additional observations from a re-analysis of the deposited data

Results flagged for a closer look

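The change of Fosl2 under TGFβ in ΔHD1/- line 1, -1.33 on the log2(CPM + 1) scale (389 to 155 CPM), lay apart from those of the other 8 lines, which ran from -0.44 to 0.34. Its gap to the nearest line was 0.534 of the whole range, above Dixon's 95% critical value for 9 values. Chance passes this limit in about 1 of 20 such groups. The 10 genes were examined in 2 responses, and no other gene passed it.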

How the results depend on the processing

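Egr1 stayed called in the mean TGFβ response under all 21 alternatives (-2.27 to -1.84, adjusted p 3.70e-05 to 0.0284). Egr2 lost the call in 1 and Fosb in 7, both given with their values above. The change of Egr2 ran from -2.53 (edgeR) to -1.39 and that of Fosb from 1.34 to 2.20 (DESeq2), against -1.62 and 1.54 in the main fit. Fitting the cell line as a replicate block raised the members called in TGFβ to 3 in ΔHD1/-, 1 in ΔHD2/fl and 2 in ΔHD2/- and changed no other count of members. The replicate number as a block over fl and recombined lines, where a shared tumour is not given in the sources used here (correlation of deviations 0.0871 to 0.472), gave 1 member, Fosl1, in ΔHD2 under Wnt3a.

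Counts of 0 also moved with DESeq2 (ΔHD1/- 1, ΔHD2/- 2 under TGFβ), with the compared groups alone (ΔHD2/- 1) and with an unadjusted p and a 1.5-fold change: TGFβ 3 in ΔHD1/-, 1 in ΔHD2/fl and 2 in ΔHD2/-, Wnt3a 1 in the mean, ΔHD1/fl and ΔHD2/-, and genotype contrasts 1, 1 and 2 in ΔHD1 (no cytokine, Wnt3a, TGFβ) and 3 in ΔHD2 under Wnt3a. Leaving out 1 line gave 0 to 1 in both Wnt3a contrasts, and leaving out both Cdh1-low lines, chosen after seeing the data, gave 1 in ΔHD1 under TGFβ. The cause was not tested.

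Uncalled changes that reversed in sign were, under TGFβ, Fosl2 (0.012 with median-of-ratios scaling, 0.084 with edgeR, 0.099 with DESeq2, -0.37 to 0.042 without 1 line), Jund (0.017, scaling), Fosl1 (0.015, DESeq2) and Jun (-0.054 to 0.11 without 1 line). Under Wnt3a they were Fos (0.067 edgeR, 0.078 DESeq2, -0.20 to 0.066 without 1 line, 0.15 without ΔHD2/- lines 2 and 3, also chosen after seeing the data), Fosb (0.14, 0.15, -0.27 to 0.075 and 0.27) and Fosl1 (-0.012 to 0.10 without 1 line, -0.0091 without both Cdh1-low lines). Median levels of untreated lines moved by less than 1 SD with scaling. Genes called in all under TGFβ numbered 719, against 1184 with the block, 1086 with DESeq2, 855 with edgeR, 2234 without a fold limit, 2161 with unadjusted p, and 465 and 455 without ΔHD2/fl lines 1 and 2. Under Wnt3a they numbered 3, against 32, 31, 3, 5, 304, 5 and 1, 5 with no filter, 9 and 81 without ΔHD1/fl lines 1 and 2, 1 without ΔHD1/- line 1, 14 without ΔHD2/- line 1, and 77 without both Cdh1-low lines. Groups of 2 or 3 lines limit what single genotypes can show, and levels of Egr2 under TGFβ are near the floor.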
